A study of Mus musculus with 10 samples.

Results

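The 7 genes described here encode the purinergic receptors P2ry12, P2ry13, P2ry6, P2rx4, P2rx7 and Adora3 and the ectonucleotidase Entpd1. The rule lists them by name and uses no measured value, although the list was drawn up with earlier results of these data known, and all 7 were found among the 31053 genes of the count matrix. Single-cell RNA sequencing with 3' chemistry was performed on CD45+ cells of the whole brain, in 10 libraries, 1 for each genotype and age. Every library pooled 3 animals, of which 2 were male and 1 was female. WT and Nlrp3KO littermates, neither of which carries a transgene, were sampled at 3, 6 and 9 months. APP/PS1 mice, a transgenic model of amyloid deposition, and Nlrp3KO APP/PS1 mice, which lack Nlrp3 and carry the transgenes, were sampled at 3 and 9 months only. All 4 genotypes were on a C57BL/6 background, the Nlrp3 -/- animals lack the gene in all cells, and the tissue was dissociated in the presence of actinomycin D.

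The libraries held 1755 to 8208 microglia each (median 3290) with 9357431 to 35107144 UMIs (unique molecular identifiers, which mark single captured RNA molecules). UMIs were summed over the microglia of a library and expressed as CPM (counts of a gene scaled to a common library total), since cells of 1 library are not replicates. A library is a pool, so the spread between libraries holds both animals and preparation. In these sums, fewer cells with a transcript and fewer transcripts per cell cannot be told apart. The microglial markers Tmem119, Sall1, Sparc, Fcrls and Siglech summed to between 8496 and 9404 CPM in each library. Of all cells, 1.08% carried a barcode that also occurred in another library. Nlrp3 itself had 0 UMIs in the microglia of all 5 Nlrp3KO libraries and 390 to 1425 UMIs in the 5 Nlrp3WT libraries. The annotation names 3 batches and each holds a single age. Effects of age and of batch therefore cannot be told apart, and genotypes were always compared within an age.

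Extracellular ATP released by active or damaged cells is degraded stepwise to ADP, AMP and adenosine, and ATP, ADP and adenosine act on different receptors. P2ry12 and P2ry13 are Gi-coupled receptors for ADP, and P2ry12 steers microglial processes toward sources of nucleotides and is widely used as a marker of homeostatic microglia. P2ry6 is a Gq-coupled receptor for UDP linked to phagocytosis. P2rx4 and P2rx7 are ATP-gated cation channels, of which P2rx7 drives potassium efflux and is a classical upstream trigger of the Nlrp3 inflammasome. Entpd1 (CD39) converts ATP and ADP to AMP at the cell surface, and Adora3 is a Gi-coupled adenosine receptor.

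Of the 7 genes, 3 lie on chromosome 3 of the mouse genome GRCm38. P2ry13 (chr3:59207892-59210882) and P2ry12 (chr3:59216272-59262871) are neighbours on the minus strand, 5389 bases apart, and both lie inside Med12l (chr3:59005825-59318682), which is read from the opposite strand. Adora3 (chr3:105870858-105908926) shares its strand and most of its span with Tmigd3 (chr3:105870903-105924042). Reads that overlap both genes may have been given to either or left uncounted, so the Adora3 count is less certain. Tmigd3 held 270 UMIs in all microglia, against 28096 for Adora3. P2rx7 (chr5:122643911-122691432) and P2rx4 (chr5:122707544-122729738) are neighbours on the plus strand of chromosome 5, 16111 bases apart. P2ry6 (chr7:100937630-100974649, minus strand) and Entpd1 (chr19:40612366-40741602, plus strand) stand apart from the others.

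The promoter windows of P2ry12, P2ry13 and Adora3 are shown because these 3 genes were lower at 9 than at 3 months in the microglia, and P2ry12 and P2ry13 are neighbours. Each is 300 bases of RefSeq sequence of GRCm38.p6, from 250 bases before to 50 bases after the RefSeq start, written 5′ to 3′ on the strand of the gene, with matches to the motifs searched in capitals (of the longer ETS form, the part it shares with the shorter).
P2ry12, chr3:59262936-59263235, minus strand: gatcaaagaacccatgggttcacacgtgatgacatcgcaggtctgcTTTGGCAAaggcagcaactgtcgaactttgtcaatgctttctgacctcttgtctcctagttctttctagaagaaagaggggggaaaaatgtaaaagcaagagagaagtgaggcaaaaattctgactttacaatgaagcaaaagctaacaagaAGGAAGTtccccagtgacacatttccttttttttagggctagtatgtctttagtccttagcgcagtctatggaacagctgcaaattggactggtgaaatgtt
P2ry13, chr3:59210833-59211132, minus strand: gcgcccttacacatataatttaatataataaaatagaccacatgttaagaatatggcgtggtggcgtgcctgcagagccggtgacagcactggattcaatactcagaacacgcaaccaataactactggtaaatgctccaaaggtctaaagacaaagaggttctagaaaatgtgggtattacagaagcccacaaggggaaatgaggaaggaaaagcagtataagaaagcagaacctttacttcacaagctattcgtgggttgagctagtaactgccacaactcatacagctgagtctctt
Adora3, chr3:105904171-105904470, plus strand: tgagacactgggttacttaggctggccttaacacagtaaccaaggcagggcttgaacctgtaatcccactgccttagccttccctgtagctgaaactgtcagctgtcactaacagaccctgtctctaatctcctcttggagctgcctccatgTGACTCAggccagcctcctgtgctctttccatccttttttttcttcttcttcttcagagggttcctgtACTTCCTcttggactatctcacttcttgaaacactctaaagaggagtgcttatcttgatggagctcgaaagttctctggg
The motifs were searched on both strands. The ETS motif AGGAAGT occurred in 9.35% of the 32851 promoter windows of the table, and its longer PU.1-type form GAGGAAGT, which overlaps it, in 3.20%. The composite PU.1 and IRF motif occurred in 2.72%, the repeated IRF motif in 3.44%, the AP-1 motif TGANTCA in 7.81%, the CEBP motif TTGCNNAA in 10.8% and the MEF2 motif in 0.164%. The P2ry12 window holds AGGAAGT at -52 to -46 from the start and a CEBP match on the opposite strand at -204 to -197. The Adora3 window holds GAGGAAGT on the opposite strand at -30 to -23 and the AP-1 match at -98 to -92, whereas none of these motifs has a match in the P2ry13 window. Of the 6 members with a promoter window (P2ry6 has none), P2rx7 was the only other with a match. Its AP-1 match lies in the window chr5:122643677-122643976 and its GAGGAAGT match in another, chr5:122650133-122650432. Such matches describe the sequence only. The Adora3 window lies inside the GENCODE span of the gene given above, so its RefSeq start is not the first base of that span.

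P2ry12 was detected in nearly every homeostatic microglia, and all 7 genes were detected in every library. After each cell had been thinned to 1500 UMIs, 98.2% of the 31953 homeostatic microglia (HM) held at least 1 P2ry12 UMI, with 96.5% to 99.0% per library, and 99.9% did without thinning. T cells were taken as the reference for a receptor they are assumed to lack, which was not tested. Their share was 5.13% (95% exact binomial interval 4.10% to 6.33%) after thinning and 10.6% without thinning. The median depth before thinning was 5810 UMIs in T cells, against 4366 UMIs in HM. At this common depth the median HM held 5 P2ry12 UMIs in each of the 4 libraries of 3 months and 4 UMIs in each of the 6 libraries of 6 and 9 months. HM with no P2ry12 UMI left made up 1.01% to 1.28% of the cells at 3 months and 2.39% to 3.53% at 6 and 9 months.

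The age groups differed in several members. P2ry12, P2ry13 and Adora3 were lower at 9 than at 3 months and P2rx4 was higher, by less than 2-fold in each case. The median percent of mitochondrial UMIs per microglia, 2.35% to 3.16% at 3 months and 3.39% to 3.67% at 9 months, and the share of HM, 78.9% to 87.7% and 53.7% to 78.3%, did not overlap between these ages either, and the part of the mitochondrial share was not tested (values within HM alone are given below). For P2ry12 in all microglia, the 3-month libraries held 3596 (WT), 3450 (Nlrp3KO), 3438 (APP/PS1) and 3563 CPM (Nlrp3KO APP/PS1), those of 6 months 2764 (WT) and 2832 CPM (Nlrp3KO), and those of 9 months 2739, 2793, 2494 and 2333 CPM in the order of the 3-month libraries. The ages of 3 and 9 months did not overlap, the 6-month libraries lay near the non-diseased libraries of 9 months, and the 2 lowest values were those of the transgenic libraries of 9 months. The fitted log2 fold change over the 4 genotype pairs was -0.36 ± 0.058 (SE, adjusted p = 0.00826), and P2ry12 was lower in 4 of 4 pairs. P2rx4, the ATP-gated channel, went the other way.

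**Figure D1:**
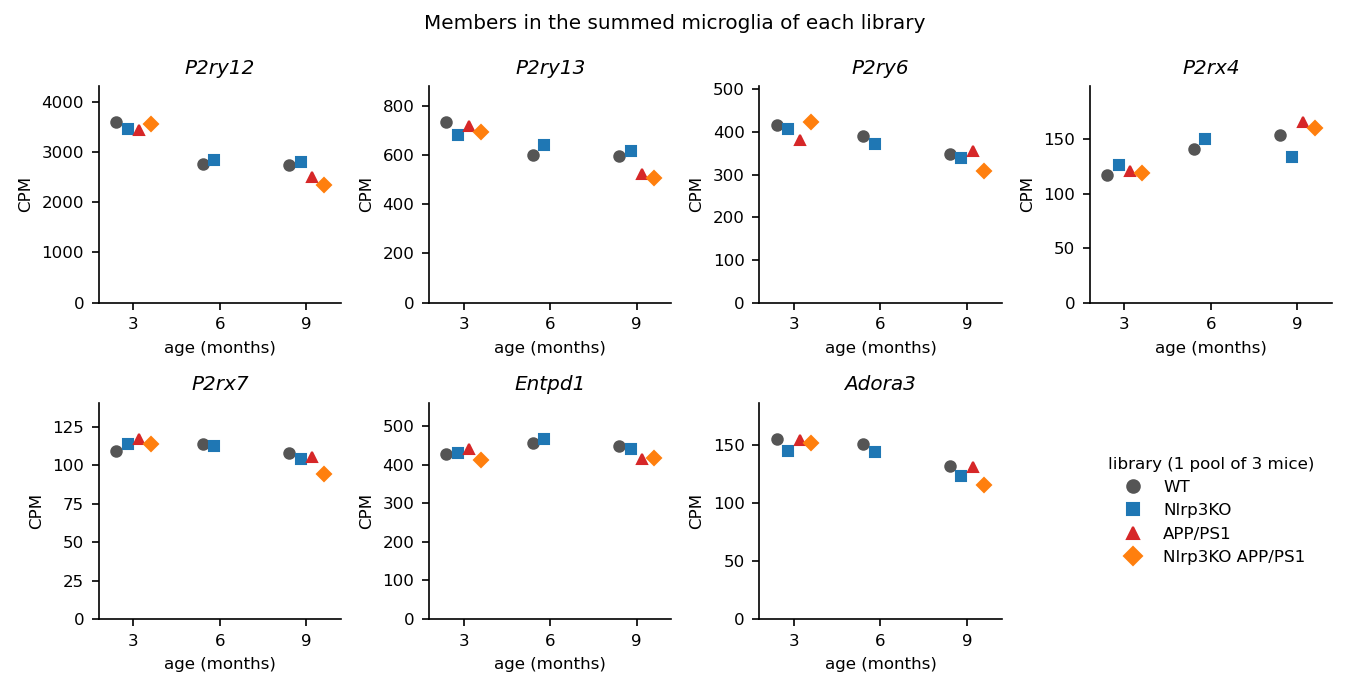
CPM of each member (y axis, from 0) in the summed microglia of each of the 10 libraries, by age in months (x axis) and genotype (symbol). P2ry12 lies between 3438 and 3596 CPM in the 4 libraries of 3 months and between 2333 and 2793 CPM in those of 9 months, whereas P2rx4 goes from 117 to 126 CPM up to 134 to 166 CPM and Entpd1 overlaps between the ages.

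P2rx4 stood at 117, 126, 121 and 119 CPM in the WT, Nlrp3KO, APP/PS1 and Nlrp3KO APP/PS1 libraries of 3 months, at 141 and 150 CPM in the WT and Nlrp3KO libraries of 6 months, and at 154, 134, 166 and 161 CPM in the 4 libraries of 9 months. All libraries of 9 months were above all of 3 months, and the smallest step was that of the Nlrp3KO pair. The log2 fold change was 0.42 ± 0.080 (SE, adjusted p = 0.0137). P2ry13, the ADP receptor next to P2ry12, stood in the same order of libraries at 734, 681, 718 and 696 CPM for 3 months, at 601 and 642 CPM for 6 months and at 598, 619, 522 and 507 CPM for 9 months. Its order of libraries at 9 months was that of P2ry12, with both transgenic libraries lowest, and its log2 fold change was -0.26 ± 0.060 (SE, adjusted p = 0.0250). Adora3 gave 155, 145, 154 and 152 CPM for the 3-month libraries, 150 and 144 CPM for those of 6 months and 131, 123, 131 and 116 CPM for those of 9 months (log2 fold change -0.19 ± 0.047, SE, adjusted p = 0.0276). Its 6-month libraries lay close to those of 3 months, unlike those of P2ry12.

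For the other 3 members the test was not passed. P2ry6 had a log2 fold change of -0.19 ± 0.060 (SE, adjusted p = 0.0610), from a mean of 407 ± 17.9 CPM (SD, n = 4) at 3 months to 338 ± 20.5 CPM (SD, n = 4) at 9 months. P2rx7 averaged 114 ± 3.26 CPM in the 3-month and 103 ± 6.03 CPM in the 9-month libraries (SD, n = 4 each), and its log2 fold change was -0.06 (adjusted p = 0.378). Entpd1, with 427 ± 11.6 and 430 ± 16.3 CPM at 3 and 9 months (SD, n = 4 each), was the member whose ages overlapped, and its highest values were the 456 and 468 CPM of the 2 libraries of 6 months.

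In all, 4 of the 7 members had an adjusted p under 0.05 between 9 and 3 months, against 23.3% of the 12282 genes tested. P2rx4 was the 1 member that rose, where 12.7% of the genes did, and 3 fell, where 10.5% did. With TMM scaling 1561 genes rose and 1295 fell, whereas limma-trend on log2(CPM + 1) without TMM called 1037 higher and 2295 lower. None passed both limits (adjusted p under 0.05 and absolute log2 fold change over 1), which 3.91% of the genes did. By CPM, 1 member (P2rx4) lay in all libraries of 9 months above all of 3 months and 5 lay below, against 8.26% and 24.9% of the genes. The median log2 ratio of CPM over all genes was -0.08 between these ages, and the fitted log2 fold changes, which are scaled by TMM, were centred on 0.00. Within the 2 non-diseased genotypes alone, P2ry12 had a log2 fold change of -0.30, P2ry13 of -0.17 and P2rx4 of 0.28, and no member had an adjusted p under 0.05, where 0.131% of the genes had one and 2537 genes had an unadjusted p under 0.05. With the 2 APP/PS1 genotypes alone the values were -0.43, -0.35 and 0.55, and 3 members passed, against 16.5% of the genes. Without the APP/PS1 pair, no member kept an adjusted p under 0.05 (P2ry12 -0.36, adjusted p = 0.0513), where 7.39% of the genes had one. Without the Nlrp3KO APP/PS1 pair 1 member did (10% of the genes), and without the WT pair 2 did (18.8%), so the share over all genes was also lower in each of these fits. It was higher, at 26.4% and 27.1%, with additive terms in place of the pairs and with limma-trend, where P2ry6 was added to the members that passed, which made 5. In HM alone, 4 members had an adjusted p under 0.05 (16.4% of the genes), namely P2ry12 (-0.30), P2ry13 (-0.18), P2rx4 (0.35) and Entpd1 (0.20), whereas Adora3 had -0.14 with an adjusted p of 0.0980.

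Between APP/PS1 and non-diseased mice no member passed the test in the summed microglia. None of the 7 had an adjusted p under 0.05 between APP/PS1 and non-diseased libraries, where 0.057% of the 12282 genes did and 0.0407% passed both limits. No member had an unadjusted p under 0.05 with edgeR either, and none passed with DESeq2 or limma-trend. The largest differences were those of P2ry13 (log2 fold change -0.10 ± 0.055, SE, adjusted p = 0.700, lower in 3 of 4 pairs), P2rx4 (0.10 ± 0.074, SE, adjusted p = 0.757, higher in 3 of 4 pairs) and P2ry12 (-0.09 ± 0.059, SE, adjusted p = 0.745, lower in 3 of 4 pairs). In HM alone these 3 values were -0.05, 0.03 and -0.02. The share of HM among the microglia was 58.9% and 53.7% in the transgenic libraries of 9 months and 76.6% and 78.3% in the non-diseased ones, and its part in the differences of the summed microglia was not tested. The summed levels of markers of border macrophages were 8.20 to 14.3 CPM in the APP/PS1 libraries and 4.80 to 8.66 CPM in the non-diseased ones, and those of monocytes 8.52 to 21.1 and 6.25 to 9.08 CPM, with Cd163, Lyve1, Ms4a7, Cbr2, Ly6c2, Fn1 and Chil3 each under 1 CPM. Their part was not tested.

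The effect of APP/PS1 was not shown to differ between the ages for any member. In the edgeR test of that difference 0% of the genes had an adjusted p under 0.05, while 531 genes had an unadjusted p under 0.05. DESeq2 gave 16 genes an adjusted p under 0.05, none of them a member. P2rx4 had the largest value, a log2 difference of 0.29 ± 0.117 (SE, adjusted p = 0.988), and it was the 1 member with an unadjusted p under 0.05 in edgeR. By the CPM given above, P2rx4 went from 154 to 166 (WT to APP/PS1) and from 134 to 161 (Nlrp3KO to Nlrp3KO APP/PS1) at 9 months, and from 117 to 121 and from 126 to 119 at 3 months.

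**Figure D2:**
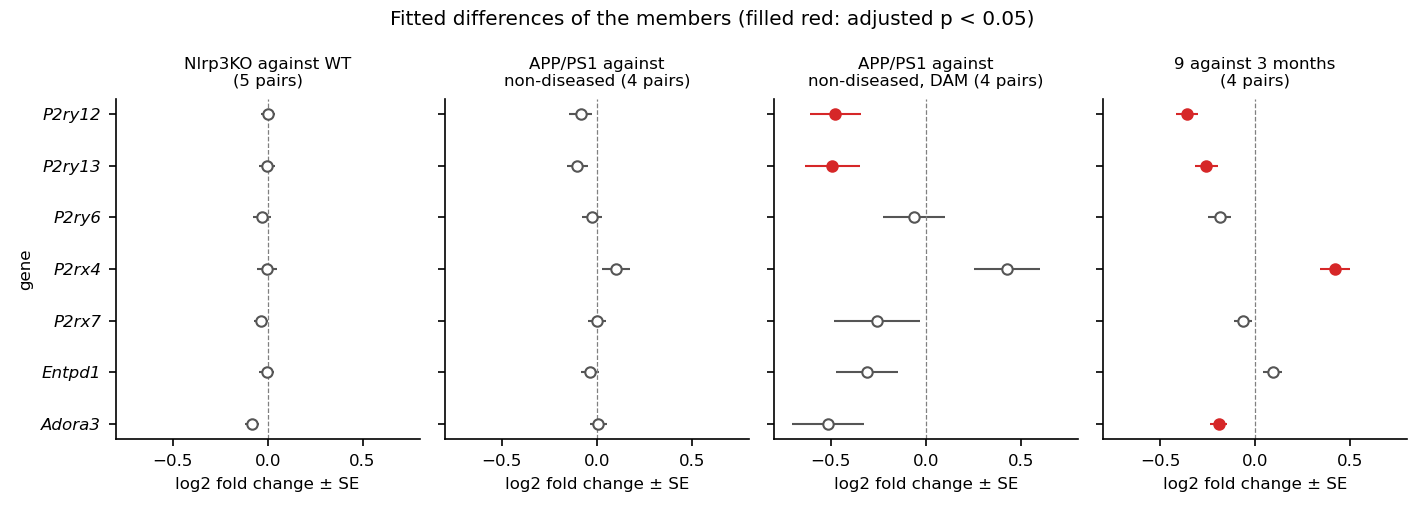
Fitted log2 fold change of each member (x axis, error bars 1 SE) in 4 comparisons over libraries, with red filled points for an adjusted p under 0.05 over all genes tested. No member is filled for Nlrp3KO against WT or for APP/PS1 in all microglia, P2ry12 and P2ry13 are filled within disease-associated microglia, and P2ry12, P2ry13, P2rx4 and Adora3 are filled between 9 and 3 months.

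Within disease-associated microglia (DAM), P2ry12 and P2ry13 had an adjusted p under 0.05 and were lower in APP/PS1 than in non-diseased mice. Adora3 and Entpd1 were lower in 4 of 4 pairs without passing the test. The authors assigned this state by clustering of the same counts, so these p-values hold only for the cells so labelled. Whether the label covers like cells in both groups was not tested. P2ry12 in DAM had 3311 and 3441 CPM in WT libraries of 3 and 9 months, 2210 and 3715 CPM in Nlrp3KO, 2232 and 2377 CPM in APP/PS1, and 1552 and 1963 CPM in Nlrp3KO APP/PS1. Each transgenic library lay below its non-diseased partner, although the ranges overlap through the Nlrp3KO library of 3 months. P2ry13 in DAM had 590 and 598 CPM in WT, 475 and 649 CPM in Nlrp3KO, 431 and 425 CPM in APP/PS1 and 292 and 346 CPM in Nlrp3KO APP/PS1, so that the groups did not overlap. The log2 fold changes were -0.48 ± 0.13 for P2ry12 (SE, adjusted p = 0.0270) and -0.49 ± 0.15 for P2ry13 (SE, adjusted p = 0.0374). These 2 of the 7 members had an adjusted p under 0.05, against 7.61% of the 6331 genes tested in DAM. The other 5 did not pass. Adora3 had a log2 fold change of -0.52 ± 0.19 (SE, adjusted p = 0.104), P2rx4 of 0.43 ± 0.17 (SE, adjusted p = 0.162), Entpd1 of -0.31 ± 0.16 (SE, adjusted p = 0.309), P2rx7 of -0.26 ± 0.23 (SE, adjusted p = 0.608) and P2ry6 of -0.06 ± 0.16 (SE, adjusted p = 0.899). Entpd1 in DAM had 298 and 311 CPM in WT, 426 and 268 CPM in Nlrp3KO, 211 and 231 CPM in APP/PS1 and 235.5 and 239 CPM in Nlrp3KO APP/PS1. Like P2ry13 and Adora3, it did not overlap between the groups, so that 3 of the 7 members lay in all APP/PS1 libraries below all non-diseased ones, against 8.18% of the genes, and none lay above, against 3.74%. P2rx7 was lower in 3 of 4 pairs, with means of 59.95 ± 6.24 CPM in APP/PS1 and 89.1 ± 35.0 CPM in non-diseased libraries (SD, n = 4 each).

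The DAM comparison was added after the data had been seen and rests on few cells. DAM numbered 24 to 253 cells per APP/PS1 library and 31 to 102 cells per non-diseased library of 3 and 9 months, and their mean depth was 6561 to 9482 UMIs per cell against 5151 to 5514. Without the WT pair of 3 months or without the Nlrp3KO pair of 9 months neither gene had an adjusted p under 0.05 (P2ry12 -0.49, adjusted p = 0.154, and -0.40, adjusted p = 0.180), where 3.99% and 5.28% of the genes did. Without the Nlrp3KO pair of 3 months or the WT pair of 9 months, P2ry12 alone passed, with 5.68% and 8.02% of the genes. The markers Tmem119, Sall1, Sparc, Fcrls and Siglech summed to 8160 and 9015 CPM in the DAM of APP/PS1 mice of 3 and 9 months and to 6946 and 7870 CPM in Nlrp3KO APP/PS1, lower in 4 of 4 pairs than the 8586 and 11130 CPM of WT and the 7616 and 10770 CPM of Nlrp3KO. Slc1a3, a transporter gene of the astrocyte list, had 97.2 to 177 CPM in the 4 transgenic libraries and 191 to 304 CPM in their partners. The other genes of that list, Aqp4 and Gfap, had 0 CPM in DAM, and Slc1a3 had 208 CPM in HM. Monocyte markers summed to 17.6 and 6.59 CPM (APP/PS1 and Nlrp3KO APP/PS1) against 6.21 and 19.6 CPM (WT and Nlrp3KO) at 3 months, and to 41.0 and 31.9 against 20.5 and 0 CPM at 9 months. Border macrophage markers summed to 8.79 to 41.2 CPM in the DAM of the APP/PS1 libraries and to between 0 and 49.7 CPM in the others. The part of depth and of these markers was not tested, and whether DAM differ in this from the other states was not tested either. In the states TM, IRM and IEG (defined in the next paragraph) no member had an adjusted p under 0.05 with edgeR and only Entpd1 in IRM had an unadjusted one. Of all genes tested there, 0.0452%, 0.0459% and 0.0224% had an adjusted p under 0.05, so that no call among 7 genes is near the background. P2ry12 had log2 fold changes of 0.06, 0.05 and 0.19 in these states.

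The states the authors named are HM, DAM, TM (in transition toward DAM), IRM (with an interferon response), IEG (with immediate-early genes) and PM (proliferating). Since they are clusters of the same counts, their levels relative to HM are described here with no test. P2ry12 was lower in TM, IRM, IEG and PM than in HM in 10 of 10 libraries, with median ratios to HM of the same library of 0.565 in TM, 0.739 in IRM, 0.608 in IEG and 0.807 in PM. P2ry13 followed, at 0.608 in TM, 0.834 in IRM, 0.679 in IEG and 0.821 in PM. TM was the tightest of these, with log2 ratios of P2ry12 from -0.92 to -0.75 over the 10 libraries.

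**Figure D3:**
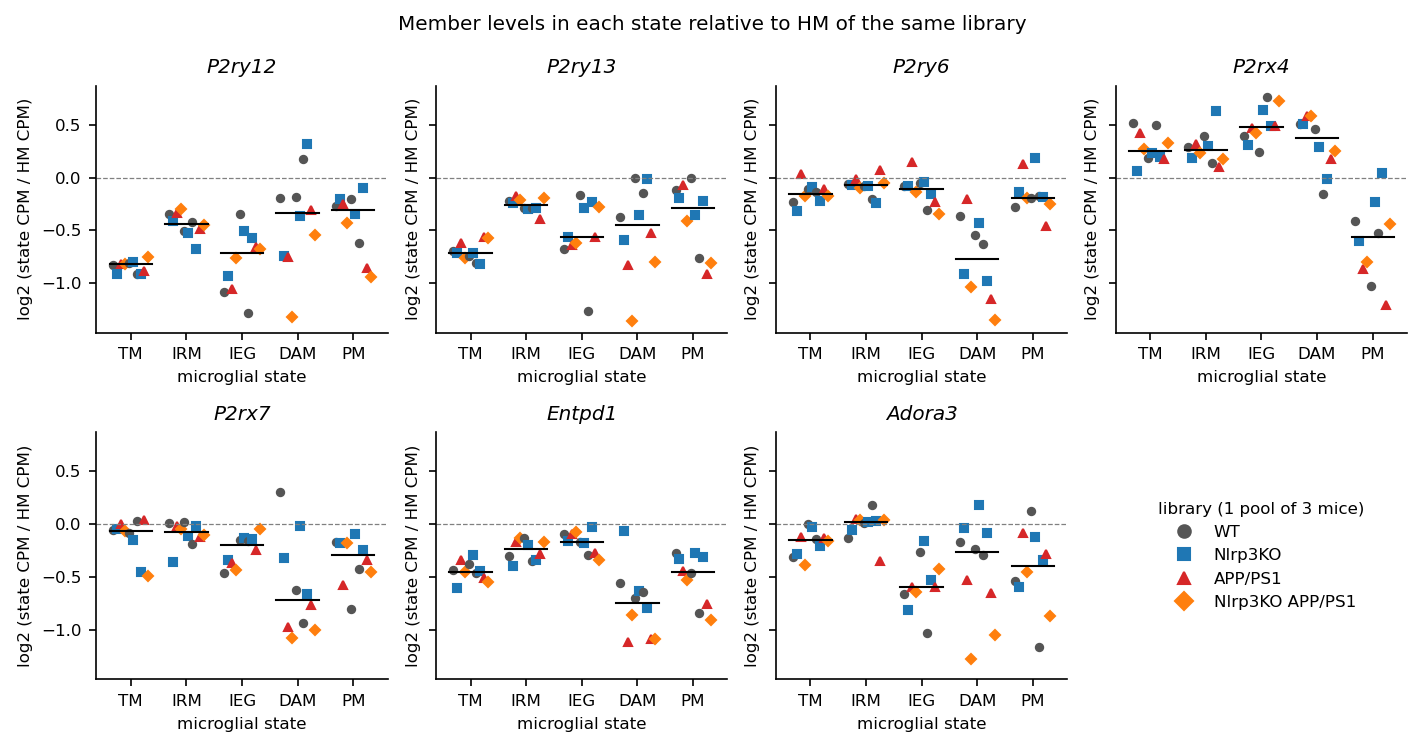
Log2 ratio of each member's CPM in a microglial state (x axis) to its CPM in HM of the same library, 1 symbol per library and a line at the median of 10. P2ry12 and P2ry13 lie below 0 in every library in TM, IRM and IEG, P2rx4 lies above 0 in every library in these 3 states, and the P2ry12 values spread most widely in DAM, from -1.32 to 0.32.

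P2rx4 ran against the ADP receptors here too. It was above HM in 10 of 10 libraries in TM (median ratio 1.19), IRM (1.20) and IEG (1.397) and in 8 of 10 in DAM (1.30), and below HM in 9 of 10 in PM (0.676). P2ry6, the UDP receptor, was close to its HM level in TM, IRM and IEG (median ratios 0.898, 0.952 and 0.930) but was below HM in DAM in 10 of 10 libraries (0.587). P2rx7 and Entpd1 were also low in DAM, with medians of 0.609 (9 of 10 libraries below HM) and 0.596 (10 of 10 below). Adora3 was lowest in IEG (0.662, 10 of 10 below) and level with HM in IRM (1.02).

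In DAM, P2ry12 varied from library to library. It was below HM in 8 of 10 libraries, and both exceptions were the non-diseased libraries of 9 months, where DAM had 3441 (WT) and 3715 CPM (Nlrp3KO) and HM 3035 and 2975 CPM. In the APP/PS1 library of 9 months, DAM had 2377 and HM 2936 CPM, and in the Nlrp3KO APP/PS1 library 1963 and 2865 CPM. The widest gap was that of the Nlrp3KO APP/PS1 library of 3 months, with 1552 CPM in 83 DAM and 3877 CPM in HM. P2ry6 did not share these exceptions: in the same 2 non-diseased libraries it had 236 and 181 CPM in DAM against 364 and 356 CPM in HM. Even where it was lowest, P2ry12 remained present in most DAM, as 89.9% of 901 DAM held a UMI after thinning (83.3% to 98.2% per library).

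**Figure D4:**
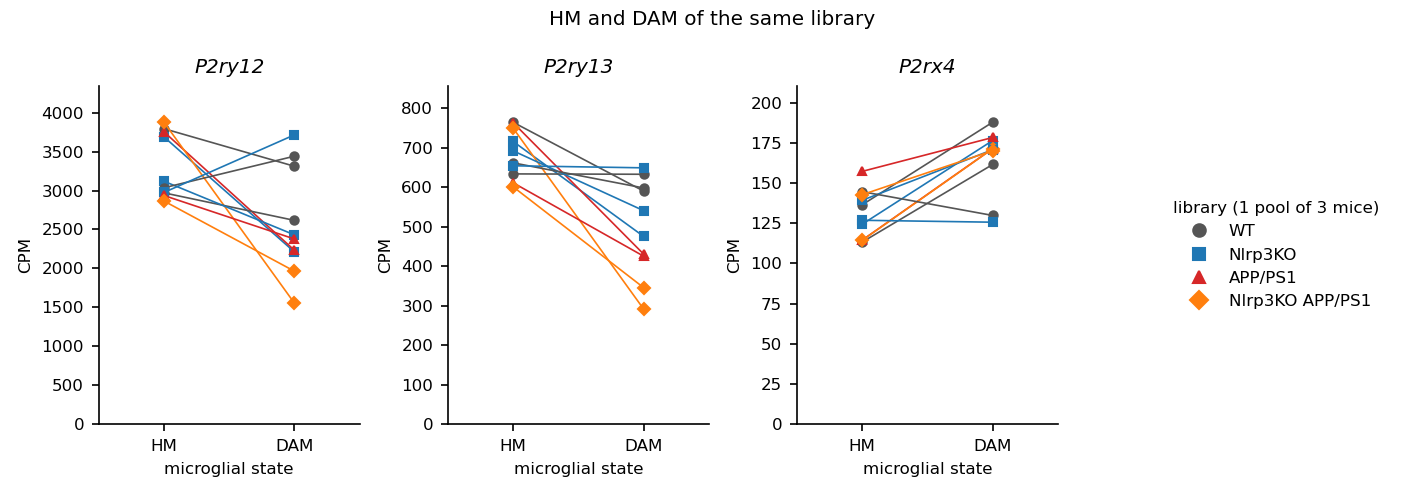
CPM (y axis, from 0) of P2ry12, P2ry13 and P2rx4 in HM and DAM, with 1 line per library coloured by genotype. For P2ry12 the lines of the 4 APP/PS1 libraries fall and those of the WT and Nlrp3KO libraries of 9 months rise, from 3035 to 3441 and from 2975 to 3715 CPM.

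Between Nlrp3KO and Nlrp3WT mice no member passed the test. None of the 7 had an adjusted p under 0.05 over the 5 pairs, where 0.0404% of the 12383 genes did and 0.0242% passed both limits, among them Nlrp3. No member had an unadjusted p under 0.05 with edgeR or DESeq2 and 1 had with limma-trend, and none passed after adjustment with either. P2rx7, which lies upstream of the inflammasome, had 109 (WT) and 114 CPM (Nlrp3KO) in the youngest mice, 114 and 113 CPM at 6 months and 108 and 104 CPM in the oldest, and in the transgenic pairs 117 (APP/PS1) and 114 CPM (Nlrp3KO APP/PS1) for the younger and 105 and 94.2 CPM for the older mice. The Nlrp3KO library was lower in 4 of 5 pairs, by little except in the last, and the log2 fold change was -0.04 ± 0.039 (SE, adjusted p = 0.940). P2ry12 had a log2 fold change of 0.00 ± 0.038 (SE). Adora3 was lower in 5 of 5 pairs, by -0.02 to -0.18 in log2 ratio, with a fitted value of -0.08 ± 0.037 (SE, adjusted p = 0.903), and the absolute values of the other 4 were at most those of P2ry6 (-0.03 ± 0.048, SE).

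Outside the microglia, the members differed in how far their UMIs followed those of P2ry12. RNA of microglia is carried into other cell types in droplet data, so each member was set against P2ry12: an expected UMI count was taken from the P2ry12 UMIs of a cell type at the ratio of the 2 genes in the microglia of the same library. Observed over expected is near 1 where a gene kept its microglial ratio to P2ry12, which describes carry-over only where the cell type has no P2ry12 RNA of its own. In border macrophages that is not known: without cells scored as doublets P2ry12 went from 160 to 85.8 CPM in border-associated macrophages (BAM) and from 326.5 to 210 CPM in Lyve1+ border macrophages (BAM Lyve1), and the ratios there compare a gene with P2ry12 and say nothing of carry-over. P2ry12 had 114 CPM in T cells, 239 CPM in B cells and 259 CPM in natural killer cells (NK), and when cells scored over 0.5 as doublets were dropped it had 12.5, 39.9 and 20.6 CPM, against 3183 CPM in all microglia. In the 8 libraries with at least 20 B cells it ran from 5.30 to 600 CPM in these cells. Without the doublet-scored cells, 1503 of 1598 T cells, 489 of 533 B cells and 491 of 548 NK were left. Of the P2ry12 UMIs, 116 of the 1185 of T cells were left, 122 of the 839 of B cells and 61 of the 918 of NK. Most P2ry12 UMIs of these 3 types thus lay in few cells. The ratios over all cells rest largely on them and move with the doublet-scored cells. The ratios are therefore also given without these cells, a choice made after the data had been seen. Intervals on counts are 95% exact Poisson intervals and cover counting error only.

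Adora3 had few UMIs in lymphocytes. Its observed over expected UMIs were 1.24 in T cells (0.980 to 1.55), 1.07 in NK (0.775 to 1.43) and 0.965 in B cells (0.676 to 1.33), and 0.904 in BAM (0.629 to 1.26). Without doublet-scored cells they were 1.18 in BAM (0.731 to 1.81), 2.13 in T cells (1.10 to 3.72, 12 UMIs), 2.82 in NK (1.22 to 5.56, 8 UMIs) and 1.82 in B cells (0.874 to 3.35, 10 UMIs), so whether Adora3 keeps its microglial ratio in these cells was not shown. In BAM Lyve1 it was below the ratio, at 0.484 (0.282 to 0.774), with 17 UMIs observed and fewer than expected in 9 of 10 libraries, and at 0.158 (0.0325 to 0.461) without doublet-scored cells. It was above the ratio in the dendritic cell type cDC2, with 35 UMIs where 7.45 were expected (4.70-fold, 3.27 to 6.54), above expectation in 9 of 10 libraries. Its level there was 15.7 CPM in 189 cells against 145 CPM in microglia, and 29 of the 35 UMIs lay in cells of a doublet score of 0.5 or less, where the ratio was 18.6 (12.5 to 26.8). P2ry13 was at 0.888 in T cells, 0.922 in NK and 1.05 in B cells, and at 0.766 (0.461 to 1.20), 0.474 (0.174 to 1.03) and 1.07 (0.707 to 1.56) without doublet-scored cells. It was at 1.97 in BAM (1.76 to 2.19), 2.62 in BAM Lyve1 (2.37 to 2.89) and 3.71 in plasmacytoid dendritic cells (pDC; 3.07 to 4.45), each above expectation in 10 of 10 libraries, and at 2.91, 3.67 and 14.1 without these cells. In pDC its level was 125 CPM in 102 cells.

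**Figure D5:**
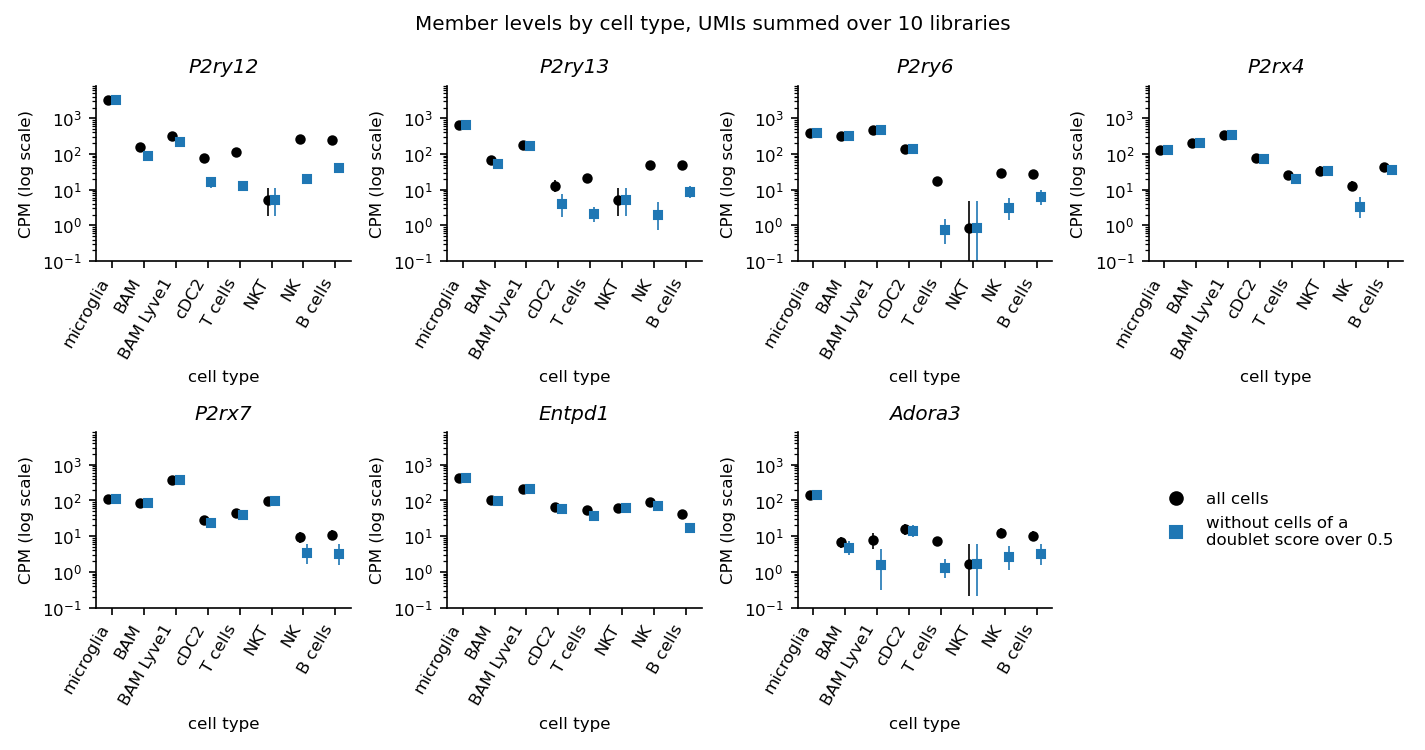
CPM (y axis, log scale) of each member in the UMIs summed over 10 libraries by cell type (x axis), for all cells (circles) and without cells of a doublet score over 0.5 (squares), with 95% exact Poisson intervals. In T cells P2ry12 drops from 114 to 12.5 CPM between the circle and the square, while P2rx7 goes from 43.3 to 39.5 CPM, and P2rx7 is higher in BAM Lyve1 (364 CPM) than in microglia (111 CPM).

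The channels and P2ry6 were shared with cells labelled border macrophages. P2rx7 had 364 CPM in BAM Lyve1 (382 cells, 259 to 441 CPM in the 9 libraries with at least 20 such cells), 84.1 CPM in BAM (725 cells) and 111 CPM in microglia, with 30.1 times and 14.6 times the expected UMIs in the 2 macrophage types (52.0 and 28.0 times without doublet-scored cells). The lowest library of BAM Lyve1 thus lay above the highest library of microglia (117 CPM). After thinning, 40.3% of BAM Lyve1, 15.8% of HM and 6.26% of T cells held a P2rx7 UMI, against 1.13% of B cells (75.1%, 39.9%, 20.1% and 5.82% without thinning), at median depths of 5137, 4366, 5810 and 4671 UMIs. P2rx4 had 333 CPM in BAM Lyve1 (264 to 468 CPM per library), 202 CPM in BAM (144 to 239 CPM) and 132.5 CPM in microglia. P2ry6 had 456 CPM in BAM Lyve1, 321 CPM in BAM and 389 CPM in microglia, so that microglia lay between the 2 macrophage types. The 6 border macrophage markers (Mrc1, Pf4, Cd163, Lyve1, Ms4a7 and Cbr2) summed to 1898 CPM in BAM, 8515 CPM in BAM Lyve1 and 6.78 CPM in HM. The monocyte markers Ccr2, Ly6c2, Plac8, Fn1 and Chil3 summed to 1471 CPM in BAM, 14 CPM in BAM Lyve1 and 7.9 CPM in HM. The cells labelled BAM thus carried both sets of markers, and the part of monocytes in the BAM values was not tested.

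Among lymphocytes, P2rx7, P2rx4 and Entpd1 were found in T cells beyond their microglial ratio to P2ry12. P2rx4 was at 4.57 times the expected UMIs in T cells (4.04 to 5.14), 4.93 times in B cells (4.18 to 5.77) and 23.4 times in ILC2 (18.0 to 29.8), above expectation in 10 of 10 libraries in each, and at 1.26 times in NK (0.916 to 1.68). Without doublet-scored cells the ratios were 34.7 in T cells (29.9 to 40.1), 24.8 in B cells (20.4 to 29.8), 129 in ILC2 (98.9 to 166) and, from 10 UMIs, 4.04 in NK (1.94 to 7.44). Its level was 26.3 CPM in T cells, 43.7 CPM in B cells, 70.9 CPM in the 157 ILC2 and 33.4 CPM in NKT. P2rx7 had 98.4 CPM in the 204 cells labelled NKT, where P2ry12 had 5.13 CPM, and 43.3 CPM in the 1598 T cells (9.44 times the expected UMIs, above expectation in 10 of 10 libraries). It was at 1.05 times in NK (0.725 to 1.48) and 1.35 times in B cells (0.956 to 1.85). Without doublet-scored cells P2rx7 was at 84.7 times in T cells (76.2 to 93.8) and, from 10 UMIs each, at 4.71 times in NK (2.26 to 8.66) and 2.49 times in B cells (1.20 to 4.58). The 5 T cell markers (Cd3e, Cd3d, Trac, Cd8a and Cd4) summed to 2092 CPM in NKT and 2673 CPM in T cells. Natural killer cell markers (Ncr1, Klrb1c, Prf1 and Gzma) summed to 101 CPM in NKT, 249 CPM in T cells and 5149 CPM in NK. Entpd1, the enzyme that starts the breakdown of ATP, was at 2.95 times in T cells (2.71 to 3.21) and 2.70 times in NK (2.42 to 3.02), both above expectation in 10 of 10 libraries, and its level was 54.2 CPM in T cells and 90.7 CPM in NK against 433 CPM in microglia. Without doublet-scored cells its ratios were 19.9 in T cells (17.9 to 22.1) and 25.0 in NK (21.7 to 28.7). P2ry6 was at 1.15 in T cells, 0.944 in NK and 0.928 in B cells, and without these cells at 0.471 (0.189 to 0.970, 7 UMIs), 1.19 (0.546 to 2.27, 9 UMIs) and 1.29 (0.778 to 2.02, 19 UMIs). In cDC2 it had 137 CPM, 15.1 times the expected UMIs and 67.0 times without these cells.

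Over 19 cell types and states with at least 50 cells, the log2 levels of P2ry12 and P2ry13 had a Pearson correlation of 0.95 and those of P2ry12 and Adora3 of 0.93, whereas P2ry12 had 0.50 with P2rx4 and 0.43 with P2rx7. These points share libraries and carried-over RNA and are not independent. Of 8249 genes, the 3 most like P2ry12 were Tmem119 (0.992), Sparc (0.987) and Crybb1 (0.985). Those most like P2ry13 were Scoc, Abcb4 and Gm30329 (0.970 to 0.972), those most like P2ry6 were Lacc1, Aif1 and Arsa (0.969 to 0.979), and those most like Adora3 were Upk1b, Slc2a5 and Usp35 (0.968 to 0.972). Entpd1 was most like Wnk1, Hpgds and Mgat4a (0.935 to 0.944), P2rx4 most like Hmox2, Pld2 and Manba (0.892 to 0.913) and P2rx7 most like Slc9a9, Trove2 and Nisch (0.857 to 0.893). Over the 10 libraries in microglia, the levels closest to those of P2ry12 were those of Sall1 (0.991), a transcription factor of microglial identity, Rgs7bp (0.990) and Vsir (0.988), and these libraries share the split by age described above.

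Of the wider nucleotide pathway, most receptor genes were near 0 or listed at 0 in microglia. Low genes were not counted alike in all libraries. Of the 31053 genes of the matrix, 19060 had a UMI in any cell of the 2 libraries of 6 months and 13184 in any cell of the 4 libraries of 3 months, as in those of 9 months, and 5881 genes had UMIs in the libraries of 6 months alone. These include 12 of the 47 genes of the pathway lists (P2rx3, P2rx5, P2rx6, P2ry1, P2ry2, P2ry4, Adora2b, Entpd2, Entpd3, Enpp3, Alpl and Panx2), so a gene listed at 0 in the other 8 libraries may not have been counted there and no bound is drawn from it. Among the 7 P2X receptor genes, P2rx2 was listed at 0 throughout, P2rx3, P2rx5 and P2rx6 had UMIs in 6-month libraries only, and P2rx1 had 7.99 CPM. P2ry10b (33.5 CPM) was the only other P2Y gene of the list of 9 above 10 CPM, P2ry1 was listed at 0 in the microglia, and of the adenosine receptors Adora1 (0.767 CPM), Adora2a (0.0669 CPM) were far below Adora3 and Adora2b was listed at 0. Nt5e, which converts AMP to adenosine, had 18 UMIs in all microglia, and Entpd2, Entpd3 and Entpd8 were listed at 0. The equilibrative nucleoside transporter genes Slc29a3 (343 CPM) and Slc29a1 (95.6 CPM), the volume-regulated channel gene Lrrc8a (52.6 CPM) and the vesicular nucleotide transporter gene Slc17a9 (13.4 CPM) were above 10 CPM, as were Gnai2 (861 CPM), Gnas (519 CPM), Orai1 (275 CPM), Itpr2 (177 CPM), Pik3cg (138 CPM), Gnaq (130 CPM), Kcnk13 (109 CPM) and Stim1 (46.2 CPM). The WT library of 9 months stood apart for Gnas (202 CPM, against 379 to 753 CPM in the other 9) and Orai1 (129 CPM, against 259 to 304 CPM).

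Of 21 pathway genes outside the 7 members that could be tested, 8 had an adjusted p under 0.05 between 9 and 3 months, 2 higher and 6 lower, against 23.3%, 12.7% and 10.5% of all genes tested. None did between Nlrp3KO and Nlrp3WT or between APP/PS1 and non-diseased libraries, where 2 of the 21 had an unadjusted p under 0.05 with edgeR in each. Those that fell were Gnaq (log2 fold change -0.38, adjusted p = 0.00660), the G protein subunit to which P2ry6 couples, P2rx1 (-0.68, adjusted p = 0.00885), the potassium channel gene Kcnk13 (-0.26, adjusted p = 0.0187), Slc29a2 (-0.76, adjusted p = 0.0381), P2ry10b (-0.21, adjusted p = 0.0404) and Slc29a3 (-0.20, adjusted p = 0.0469). The calcium-release channel gene Itpr2 rose by 0.18 (adjusted p = 0.0433). P2ry14, the UDP-glucose receptor gene on the same strand of chromosome 3 and 54273 bases from P2ry13, had a log2 fold change of 1.33 ± 0.324 (SE, adjusted p = 0.0279) and was the only 1 of the 21 past both limits, a call that did not hold in several other fits. It rests on few molecules, with 7, 15, 6 and 12 UMIs in the WT, Nlrp3KO, APP/PS1 and Nlrp3KO APP/PS1 libraries of 3 months and 8, 19, 9 and 4 UMIs in those of 9 months. Its adjusted p was 0.106 with DESeq2, 0.0626 with limma-trend, 0.0692 without doublet-scored cells and 0.0413 to 0.112 when 1 pair was left out, over 0.05 without the WT, the Nlrp3KO or the APP/PS1 pair. In the HM of all libraries together, P2ry14 had 36 UMIs and was too low to be tested. It had 0 CPM there in both transgenic libraries of 9 months against 0.137 (APP/PS1) and 0.263 CPM (Nlrp3KO APP/PS1) at 3 months. In the pairs without the transgenes it had 0.363 (WT) and 1.02 CPM (Nlrp3KO) against 0.144 and 0.259 CPM. With so few molecules a value of 0 does not show a fall, and no difference by genotype is drawn from it. Med12l, which spans P2ry12 and P2ry13 on the other strand, had a log2 fold change of 0.20 (adjusted p = 0.0515).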

How the data were processed

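Single-cell RNA sequencing of CD45+ brain cells gave 10 libraries, 1 for each genotype and age, and each library was taken as 1 sample. The deposited matrix holds UMI counts per gene and cell, which the authors made with Cell Ranger on mm10 (no version is given in the sources used here) and filtered per cell with Scater, and they annotated all CD45+ cells and the microglia separately after clustering in Seurat with harmony. The authors also deposited the percent of mitochondrial UMIs per cell and a doublet score per cell, whose caller is not named, and doublets were not removed here except in an alternative at a score over 0.5. The matrix also holds 2 library names that match no sample label (6897 cells), and these were not used. The other 45472 cells included 40547 microglia, with 2.35% to 3.67% mitochondrial UMIs per microglia in the median of each library. Of the microglia of a library, 6.21% to 8.60% had a doublet score over 0.5.

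UMI counts were summed per library over microglia and tested with edgeR 4.0.16 in R 4.3.3 (quasi-likelihood F test, filterByExpr, TMM, Benjamini-Hochberg adjustment over all genes tested). The block was the pair: 5 pairs of the same age and transgene status for Nlrp3KO against Nlrp3WT, 4 pairs of the same age and Nlrp3 genotype for APP/PS1 against non-diseased, and 4 pairs of the same genotype for 9 against 3 months. The pairs share age, batch or genotype and no animals. The APP/PS1 effect at 9 against 3 months was an interaction term. CPM were computed from the summed counts without TMM, and log2 ratios of CPM without a pseudocount. For shares of cells with a UMI, each cell was thinned to 1500 UMIs, and no microglia fell below that depth. Intervals cover counting error only. Likeness between genes was the Pearson correlation of log2(CPM + 1) over 19 cell types and states of at least 50 cells, for genes of at least 10 CPM in microglia. The genes named are the 7 members, any gene of the pathway lists (47 genes in all) that was called in a comparison or reached 10 CPM in microglia, and the 3 genes most like each member. Genes of these lists near 0 were added after their values had been seen. The members and lists were chosen with earlier results of these data known. DESeq2 1.42.0, limma 3.58.1 (limma-trend on log2(CPM + 1) without TMM), other size factors, no filter, HM alone, no doublet-scored cells, no pair block and leaving out pairs were tried as alternatives. The procedure was tested on simulated data. Promoters came from a RefSeq table of GRCm38.p6 and gene positions from GENCODE on GRCm38.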

Additional observations from a re-analysis of the deposited data

Results flagged for a closer look

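Of 56 sets of values examined for a sample far from the others, 3 held one, and chance alone gives about 1 in 20. For Adora3, the log2 ratio of CPM at 9 over 3 months was -0.39 in the Nlrp3KO APP/PS1 pair, far from the other 3 pairs. For P2ry13, the log2 ratio of IEG over HM was -1.26 in the WT library of 9 months, whose 79 IEG microglia were the fewest of any library. For Entpd1, the log2 ratio of DAM over HM was -0.07 in the Nlrp3KO library of 3 months (37 DAM), nearer to HM than in any other library.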

How the results depend on the processing

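The limits are the number of libraries, 1 pool per group, and the coincidence of age and batch. The count of 4 members with an adjusted p under 0.05 between 9 and 3 months ran from 0 to 3 when 1 pair was left out and was 0 in the 2 non-diseased genotypes alone (chosen after the data had been seen), and 4 members passed by adjusted p alone where none passed both limits. In DAM alone, also chosen after the data had been seen, the count of 2 ran from 0 to 1 when 1 pair was left out. The cause was not tested. The pairs were the block in the fits, and in the fit without the replicate block (additive terms) 5 members passed between 9 and 3 months, P2ry6 being added, where 26.4% of the genes did, and no other call changed. With limma-trend 5 members passed as well, against 27.1% of the genes.

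Values near 0 changed sign. For Nlrp3KO against WT, leaving out 1 pair gave log2 fold changes of Entpd1 of -0.02 to 0.01. For APP/PS1, P2ry6 was 0.01 and Entpd1 0.03 in HM alone, Adora3 was -0.01 with limma-trend and -0.01 at 9 months alone, and P2rx4 was -0.04 at 3 months alone. Leaving out 1 pair gave -0.05 to 0.01 for P2ry6, -0.01 to 0.02 for Adora3 and, in DAM alone, -0.12 to 0.03 for P2ry6. In the test of the APP/PS1 effect between ages, P2ry6 was -0.02 with limma-trend and ran from -0.05 to 0.16 when 1 library was left out.

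Without cells of a doublet score over 0.5, the CPM in NK were 20.6 for P2ry12, 2.02 for P2ry13, 3.37 for P2rx4, 69.1 for Entpd1 and 2.70 for Adora3, those in B cells 3.27 for P2rx7 and 17.3 for Entpd1, and P2ry12 in BAM was at 85.8 CPM. Over the 3 libraries with at least 20 NKT, the mean was 0 CPM for P2ry6 (1 UMI in all 204 NKT) and 0.606 CPM for Adora3 (2 UMIs). Entpd1 in TM was at 379.6 CPM by the annotation of all CD45+ cells. Shares of cells with a UMI moved with depth. With no thinning and at 1000 UMIs, P2rx7 was found in 75.1% and 32.5% of BAM Lyve1, 39.9% and 11.2% of HM and 20.1% and 3.82% of T cells, and P2ry12 in 98.9% and 83.1% of DAM and 99.9% and 94.6% of HM. P2ry12 was found in 10.6% of T cells with no thinning.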
